A study of Arabidopsis thaliana with 8 samples.

Results

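The precursors numbered MIR771 to MIR870 are microRNA (miRNA) hairpin loci of Arabidopsis thaliana, and their small RNA counts were examined in phloem exudates of iron-deficient (−Fe) and iron-sufficient (+Fe) seedlings. Members were chosen by name alone, as every annotated precursor in this number range except MIR775, MIR778, MIR827, MIR828, MIR838 and MIR857. The rule gave 66 precursors of the 325 in the table, which lists 20347 loci in all. MIR781b lies within MIR781a and MIR826b within MIR826a, with the same count in every library, so each pair was counted once and 64 distinct precursors remained.

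The −Fe group consisted of 4 exudate libraries and the +Fe group of 4 more, each a labelled biological replicate from wild type plants of the Col-0 accession. All seedlings grew for 11 days on MS medium with Fe. The −Fe seedlings then spent 3 days on MS without added Fe, while the +Fe seedlings spent those 3 days on fresh MS with Fe. Each library pooled the exudate of many cut rosettes, which was collected through EDTA-treated hypocotyls, so no single plant and no single cell type was sampled.

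Plant miRNAs are cut from a hairpin precursor by Dicer-like enzymes, loaded into an ARGONAUTE protein and guided to messenger RNAs by near-complete base pairing. Old miRNA families are shared among land plants and are usually encoded by several abundant precursors. Young miRNAs are restricted to Arabidopsis and its relatives, are often encoded by a single gene and tend to be low in abundance, and some of their hairpins still resemble the gene from which they arose by inverted duplication. The group is called young here by its number range alone. The age of each precursor was not examined, so the name need not hold for every member. Phloem sap carries small RNAs, miRNAs among them, from source to sink organs.

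The libraries held between 10347644 and 14116739 counts. Levels are given as CPM, counts scaled to the total of each library, and 3 counts in a library, the limit that a count of 0 allows, equalled 0.213 to 0.290 CPM. Intervals and limits of this kind cover counting error only. Between 14214 and 16201 loci had a count in the −Fe libraries, against 14585, 12117, 14291 and 11269 in +Fe replicates 1 to 4, so +Fe replicates 2 and 4 held the fewest. Small RNAs from loci overlapping 10 leaf mesophyll mRNA genes summed to 176 to 315 CPM in −Fe libraries and 174 to 371 CPM in +Fe libraries. Of 5 companion cell and sieve element mRNA genes, 3 had a locus, and PP2-A1 and SEOR1 had none. These 3 summed to 0 to 4.05 CPM in −Fe libraries and 0.0966 to 1.42 CPM in +Fe libraries. The part of these RNAs in the results was not tested. In such exudates, fewer contributing cells and less RNA per cell cannot be told apart.

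The young precursors were detected unevenly. Of the 64, 53 (82.8%) had a count in some library, 47 had at least 10 counts over the 8 libraries, and 24 (37.5%) had a count in each of the 8. Among 95 precursors of conserved families 62 (65.3%) were counted in all 8 libraries, and among 132 precursors from MIR1886 upward 40 (30.3%) were. The median precursor held 57 counts over the 8 libraries, against 490 in the conserved families and 41.5 in those from MIR1886 upward. No count was recorded for 11: MIR771, MIR773b, MIR774a, MIR774b, MIR776, MIR782, MIR832, MIR834, MIR845b, MIR868 and MIR870.

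More of the young precursors had a count in −Fe libraries. In −Fe replicates 1 to 4, 38, 42, 48 and 38 of the 64 were counted, against 37, 32, 36 and 31 in +Fe replicates 1 to 4. The groups did not overlap, although the nearest −Fe and +Fe libraries differed by 1 precursor, and the averages were 41.5 ± 4.73 in −Fe and 34 ± 2.94 in +Fe libraries (SD, n = 4 each). All precursors moved in the same direction, with 195 to 226 counted in −Fe libraries and 168 to 201 in +Fe libraries. Conserved families differed less, at 72 to 75 in −Fe libraries and 66 to 74 in +Fe libraries. Of the 132 precursors from MIR1886 upward, 63 to 82 were counted in −Fe libraries and 53 to 72 in +Fe libraries. Their averages were 74 ± 8.21 and 62.25 ± 8.42 (SD, n = 4 each), so the shift was not particular to the young precursors. Besides holding the fewest loci, +Fe replicates 2 and 4 had the lowest totals, 10347644 and 10451077 counts. The next lowest was −Fe replicate 1, with 10589005. The part of depth and of the smaller number of loci in +Fe replicates 2 and 4 was not tested. Counts in all 4 −Fe libraries were found for 34 precursors and in all 4 +Fe libraries for 26, against 171 and 150 of all 325 precursors. A count in −Fe libraries alone was found for 11, and in +Fe libraries alone for 1, MIR854a, with 2 counts. The same numbers were 31 and 6 for all 325 precursors. They were 14 and 2 for the 132 from MIR1886 upward, and 3 and 1 for the 95 of conserved families.

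**Figure D1:**
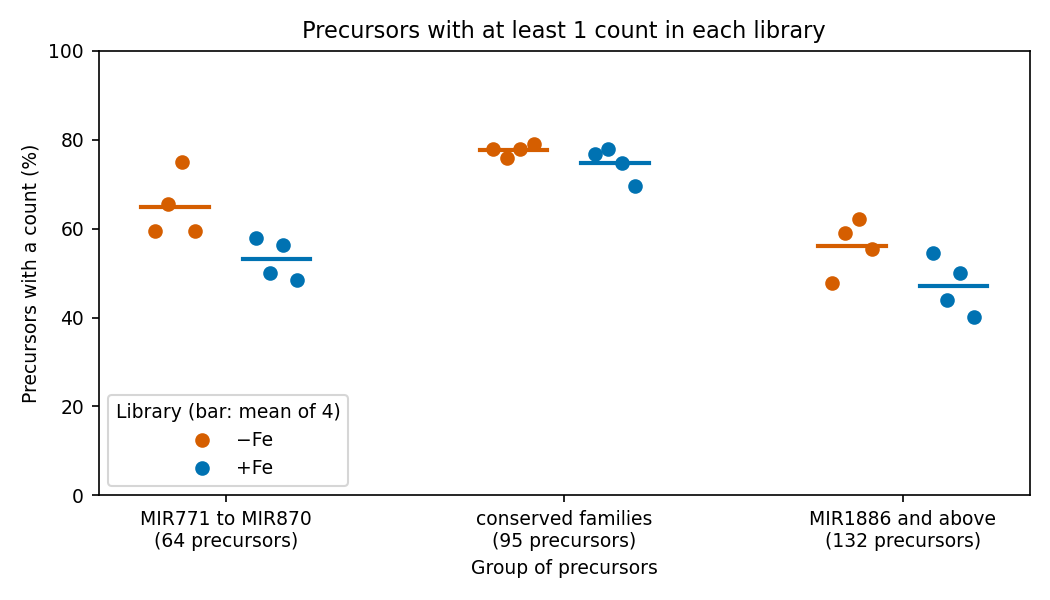
Percent of precursors with at least 1 count in each library, for the young precursors, the conserved families and the precursors from MIR1886 upward; each point is a library and each bar the mean of 4. The young precursors sit at 38 to 48 of 64 in −Fe libraries and at 31 to 37 of 64 in +Fe libraries.

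The 64 young precursors together held 27488 counts, 1.72% of all precursor counts, while the conserved families held 85.7%. Their summed level was 333, 336, 238 and 253 CPM in −Fe replicates 1 to 4, against 201, 314, 228 and 420 CPM in +Fe replicates 1 to 4. The lowest and the highest of these sums were both +Fe libraries. The means were 290 ± 52.1 CPM in −Fe and 291 ± 98.6 CPM in +Fe libraries (SD, n = 4 each), a difference smaller than the spread within either group on this scale. Scaled instead to 1e+06 precursor counts per library, the sums averaged 18532 ± 1180 in −Fe and 15895 ± 2510 in +Fe libraries (SD, n = 4 each), a difference of 2637 that was larger than either SD, with ranges of 16779 to 19254 in −Fe and 12797 to 18944 in +Fe that overlapped.

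A few precursors carried most of this signal. The 24 counted in all 8 libraries held 93.1% of the counts of the group. MIR822 and MIR824 held 44.2%, and with MIR858a, MIR865, MIR863 and MIR781a, the other precursors above 1000 counts, the share was 66.8%. Per kilobase of annotated precursor, the mean level over the 8 libraries was 198 CPM per kb for MIR822, 141 for MIR781a, 125 for MIR858a, 108 for MIR865, 100 for MIR833b, 88.3 for MIR824 and 44.3 for MIR863. MIR824 therefore stood below 5 shorter precursors on this scale, although it had the second-highest count.

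**Figure D2:**
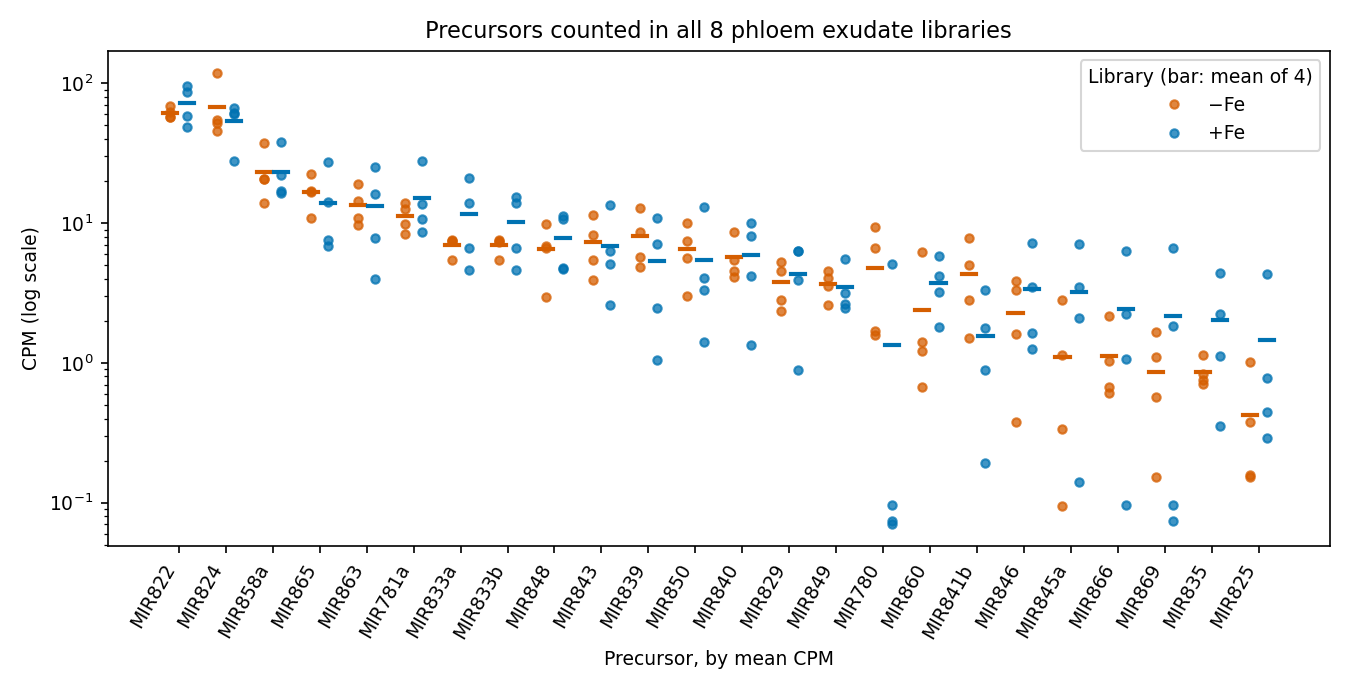
CPM (log scale) of the 24 young precursors counted in all 8 libraries, ordered by mean CPM, with one point per library and a bar for the mean of 4. MIR822 lies between 57.3 and 68.7 CPM in −Fe libraries and between 48.4 and 95.5 CPM in +Fe libraries, and most precursors spread further among the +Fe libraries.

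Replicates spread further in the +Fe group. For these 24 precursors the median coefficient of variation of CPM was 44.2% among −Fe libraries (8.69 to 113%) and 67.7% among +Fe libraries (31.3 to 188%), and it was larger in +Fe for 21 of them. Over the 8618 loci counted in all libraries the medians were 35.6% in −Fe and 48.0% in +Fe, and it was larger in +Fe for 68.0%. The highest CPM of a precursor fell in +Fe replicate 4 for 12 of the 24 and in +Fe replicate 2 for 6, compared with 31.2% and 24.4% of all such loci.

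No young precursor passed the test for a response to iron. In edgeR, 0 of the 47 tested precursors combined an adjusted p under 0.1 with a change of 0.5 or more on the log2 scale, as was so for 0% of all 17722 loci tested, and the smallest adjusted p was 0.645. Simulated loci, all given the common dispersion of 1.11 fitted to these libraries, also failed to reach this threshold at the fold changes tried. A dispersion compares with the square of a coefficient of variation. On that footing, real loci counted in all 8 libraries typically varied less, with median coefficients of variation of 35.6% in −Fe and 48.0% in +Fe. For the 24 young precursors the medians were 44.2% and 67.7%, and some varied more than the simulated loci, such as MIR780 at 188% in +Fe. The simulation therefore does not show what could be detected for well-counted precursors. The count of 0 does not show that levels were alike. In DESeq2 the count was also 0 of 47, against 0.192% of all loci, with loci that got no adjusted p kept in both totals. MIR830, MIR837 and MIR826a were among the precursors without an adjusted p, so DESeq2 could not call them. At an unadjusted edgeR p under 0.05, 3 precursors (6.38%) were higher in −Fe, namely MIR830, MIR837 and MIR826a, against 4.86% of all loci. None of the 47 was lower in −Fe at that level, against 1.83% of all loci. MIR830, MIR837 and MIR826a had no count in any +Fe library, so they met the minimum count for testing through −Fe libraries alone. With the stricter filterByExpr count filter, 0 of 31 precursors reached that level in either direction. Of all loci in that fit, 1.31% were higher and 1.44% lower in −Fe. The one-sided result of the reported fit therefore rests on sparse precursors counted in −Fe alone. Positive log2 fold changes were found for 27 of 47 (57.4%), close to the 53.4% of all loci. The median log2 fold change was 0.19 for the 47, 0.07 for all loci and 0.04 for the 24 counted in all libraries. Scaling by library totals in place of trimmed means (TMM) moved the median of all loci to −0.12. P-values here measure the spread between these libraries, and with 4 against 4 an exact two-sided permutation test cannot go below 0.0286.

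**Figure D3:**
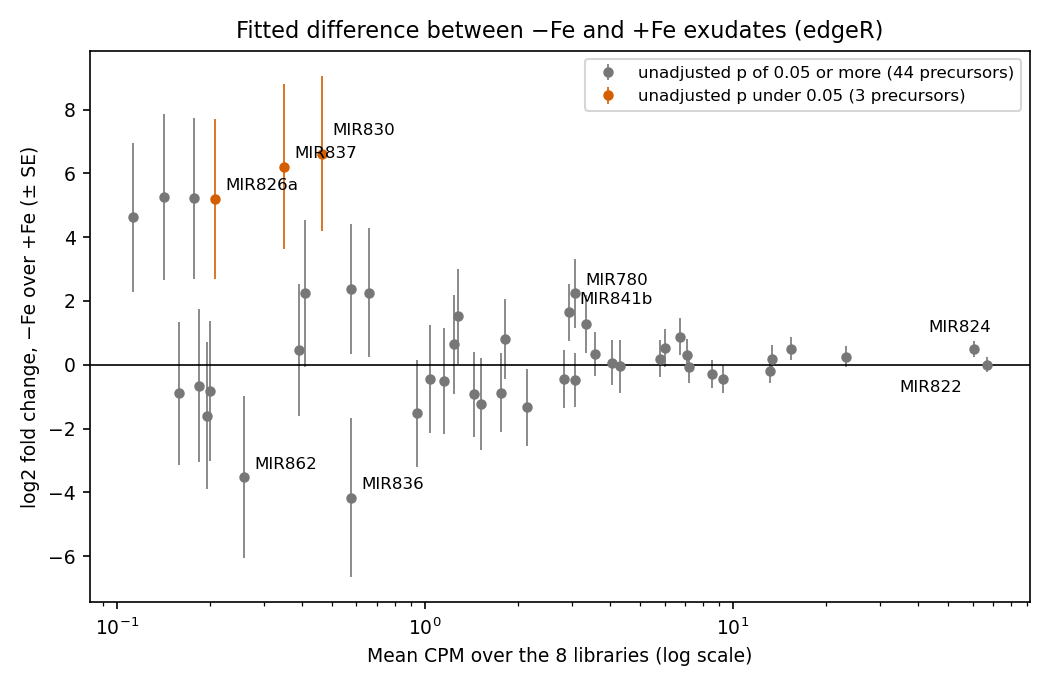
Fitted log2 fold change (−Fe over +Fe, edgeR, ± SE) of the 47 tested young precursors against their mean CPM over the 8 libraries (log scale). The 3 precursors at an unadjusted p under 0.05 are MIR830, MIR837 and MIR826a, all with no count in +Fe libraries, and MIR822, the most abundant, lies at 0.01.

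Precursors whose miRNAs target regulators of transcription included the second most abundant of the group. All 5 on this list were counted and tested, 3 were counted in all 8 libraries, none was called in either direction, and their median log2 fold change was 0.51. MIR824 (chromosome 4, 12625093 to 12625781, TAIR10) gives rise to the miRNA that targets AGL16, a MADS-box factor with roles in stomatal development and flowering time. Its level was 54.8, 118, 51.9 and 45.9 CPM in −Fe replicates 1 to 4, against 27.8, 61.5, 60.3 and 66.2 CPM in +Fe replicates 1 to 4. One −Fe library stood high, one +Fe library stood low, and the other 6 libraries lay between 45.9 and 66.2 CPM, so the groups overlapped. Its log2 fold change was 0.51 ± 0.25 (SE, edgeR, unadjusted p = 0.0510, adjusted p = 0.645), with p = 0.629 in an exact two-sided permutation test of the CPM. Without −Fe replicate 2 the log2 fold change of MIR824 was 0.27, and without +Fe replicate 1 it was 0.34. Without those libraries the group means were 50.9 ± 4.54 CPM in −Fe and 62.6 ± 3.15 CPM in +Fe (SD, n = 3 each).

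MIR858a (chromosome 1, 26773539 to 26773725) and MIR858b (chromosome 1, 26772633 to 26772935) target R2R3-MYB factors, several of which activate flavonoid synthesis. MIR858a was at 37.5, 13.96, 20.7 and 20.6 CPM in −Fe replicates 1 to 4, against 16.4, 16.9, 22.1 and 38.1 CPM in +Fe replicates 1 to 4. One library of each group was high, and the means were almost equal, at 23.2 ± 10.0 CPM in −Fe and 23.4 ± 10.1 CPM in +Fe libraries (SD, n = 4 each). For MIR858a the fitted difference on the log2 scale was 0.25 with TMM and −0.01 with library totals. MIR858b lies 603 nt away and held 43 counts, against 2193 for MIR858a. Precursors of one family can share reads, so the division between them is uncertain.

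MIR840, whose miRNA has been linked to WHIRLY3 and a pentatricopeptide repeat gene, was counted in every library, at 4.10 to 8.69 CPM in −Fe and 1.34 to 9.95 CPM in +Fe libraries. MIR847, whose miRNA targets the auxin response repressor IAA28, was counted 32, 1, 4 and 4 times in −Fe replicates 1 to 4, against 0, 2, 9 and 0 times in +Fe replicates 1 to 4. A single −Fe library thus held 61.5% of its counts.

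The precursors grouped under metabolism, transport and other targets numbered 7, of which 5 had a count, 4 were tested and 3 were counted in all libraries. Their median log2 fold change was 1.12 and none was called. The 4 values were −0.20 for MIR781a, 0.01 for MIR822, 2.24 for MIR780 and 5.20 for MIR826a. The median therefore does not describe a shift shared by the list, and MIR826a met the minimum count through −Fe libraries alone. It was the 1 of 4 at an unadjusted edgeR p under 0.05, against 4.86% of all loci higher in −Fe. The 2 with no count were MIR774a, linked to an F-box gene, and MIR776, linked to the kinase gene IBS1, while MIR859, linked to F-box genes, had 8 counts in a single −Fe library.

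MIR780 (chromosome 4, 8504141 to 8504314) has been linked to CHX18, a cation/H+ exchanger, and had the largest ratio of mean CPM between the groups among the precursors counted in all 8 libraries. It was counted 99, 20, 20 and 87 times in −Fe replicates 1 to 4, against 1, 53, 1 and 1 times in +Fe replicates 1 to 4. In CPM these were 9.35, 1.58, 1.69 and 6.61 in −Fe, against 0.0708, 5.12, 0.0745 and 0.0957 in +Fe. All 4 −Fe libraries were above 3 of the +Fe libraries, and +Fe replicate 2 fell inside the −Fe range. The mean was 4.81 ± 3.83 CPM in −Fe and 1.34 ± 2.52 CPM in +Fe libraries (SD, n = 4 each), a ratio of 3.58. The log2 fold change of MIR780 was 2.24 ± 1.09 (SE, edgeR, unadjusted p = 0.0508, adjusted p = 0.645), and p was 0.171 in an exact two-sided permutation test.

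The MIR780 result moved most with that one library, but also with other choices. With a replicate block and all 8 libraries, the log2 fold change was 4.51 (edgeR, unadjusted p = 0.00154). The smallest adjusted p among the young precursors in that fit was 0.568. It was 1.76 (unadjusted p = 0.209) without −Fe replicate 1 and 2.56 (unadjusted p = 0.0320) without −Fe replicate 2, the extremes among the other single libraries left out. Without +Fe replicate 2 the log2 fold change of MIR780 was 6.02 (edgeR, unadjusted p = 2.09e-05), and the smallest adjusted p among the young precursors was 0.123. Over the other +Fe libraries MIR780 had 3 counts, against 226 in −Fe, a ratio of rates of 59.3. Its exact 95% counting interval was 20.0 to 290, which leaves out the spread between libraries. This ratio sets aside the +Fe library with the most MIR780 counts, so it is large by that choice and is no test. With all 8 libraries the ratio of mean CPM was 3.58. A further fit left out +Fe replicates 2 and 4 together, a choice made after seeing the data. In it the log2 fold change of MIR780 was 6.09 with an adjusted p of 0.0250 in edgeR. MIR780 was the 1 young precursor called of 46 tested. The share of all 17475 loci called in that fit is not given here, so the call has no background rate beside it.

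MIR822 (chromosome 5, 897019 to 897355) is a young gene whose hairpin resembles its targets, genes for DC1 domain proteins. It was the most abundant of the group and the steadiest among −Fe libraries, at 68.7, 57.3, 57.5 and 62.0 CPM in −Fe replicates 1 to 4. In +Fe replicates 1 to 4 it was at 58.1, 87.5, 48.4 and 95.5 CPM. The −Fe values fell inside the range of the +Fe values, and the means were 61.4 ± 5.33 CPM in −Fe and 72.4 ± 22.7 CPM in +Fe (SD, n = 4 each; p = 0.371 in an exact two-sided permutation test). The log2 fold change of MIR822 was 0.01 ± 0.24 with TMM (SE, edgeR, unadjusted p = 0.980) and −0.24 with library totals.

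MIR781a (chromosome 1, 7423518 to 7423611), linked to SWIB domain and CD2-related genes, was at 13.9, 12.5, 8.43 and 9.88 CPM in −Fe replicates 1 to 4, against 8.64, 13.6, 10.7 and 28.0 CPM in +Fe replicates 1 to 4. The groups overlapped, and +Fe replicate 4 alone was above the −Fe range. Its log2 fold change was −0.20, and 0.23 without +Fe replicate 4. MIR826a (chromosome 4, 1340479 to 1340656) yields a miRNA that targets AOP2, a gene of glucosinolate synthesis. It was counted 0, 19, 2 and 0 times in −Fe replicates 1 to 4 and none in +Fe libraries, so 90.5% of its counts came from a single library. With 3 counts per +Fe library as the limit, its mean CPM was at least 1.65-fold higher in −Fe (edgeR, unadjusted p = 0.0498, adjusted p = 0.645), and without −Fe replicate 2 the −Fe mean of 0.0562 CPM gave no bound.

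The defence and lectin list held 5 precursors, all counted and tested and 3 of them counted in all 8 libraries, with none called and a median log2 fold change of −0.44. MIR863 (chromosome 4, 7846597 to 7846899), whose miRNA targets the kinase genes ARLPK1 and ARLPK2 and the miRNA processing factor SERRATE, was the most abundant. Its level was 9.63, 19.1, 10.9 and 14.4 CPM in −Fe replicates 1 to 4, against 16.3, 3.96, 7.82 and 25.4 CPM in +Fe replicates 1 to 4. The +Fe libraries included both the lowest and the highest value, and the means were 13.5 ± 4.24 CPM in −Fe and 13.4 ± 9.51 CPM in +Fe (SD, n = 4 each).

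MIR825, whose products have been linked to TIR-NBS-LRR resistance genes, was counted 4, 2, 12 and 2 times in −Fe replicates 1 to 4, against 11, 3, 6 and 45 times in +Fe replicates 1 to 4. A single +Fe library held 52.9% of them. MIR842 and MIR846, which both target jacalin lectin genes, lie 108 nt apart on chromosome 1 and held 100 and 265 counts. MIR846 was counted in every library, at 0.380 to 3.87 CPM in −Fe and 1.27 to 7.18 CPM in +Fe libraries, while MIR842 had no count in −Fe replicates 2 and 4. MIR844, linked to the CDP-diacylglycerol synthase gene CDS3, had 70 counts over the −Fe libraries and 54 over the +Fe libraries, with none in +Fe replicates 3 and 4.

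Of 11 precursors tied to chromatin and transposons, 9 were counted, 7 were tested and 1 was counted in all 8 libraries. None was called and the median log2 fold change was −0.83. MIR823 (chromosome 3, 4496775 to 4496965) targets CMT3, a chromomethylase that maintains DNA methylation outside CG sites. It was counted 37, 87, 31 and 67 times in −Fe replicates 1 to 4, against 25, 0, 17 and 59 times in +Fe replicates 1 to 4. Counts were present in all but one library, +Fe replicate 2, and the highest +Fe value of 5.65 CPM lay inside the −Fe range of 2.61 to 6.86 CPM. For MIR823 the log2 fold change was 1.27 ± 0.91 (SE, edgeR, unadjusted p = 0.176). MIR773a, whose miRNA targets the DNA methyltransferase gene MET2, was counted 57, 8, 17 and 19 times in −Fe replicates 1 to 4, against 44, 24, 0 and 2 times in +Fe replicates 1 to 4, and its relative MIR773b had none.

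MIR845a and MIR845b give rise to miRNAs that match the tRNA primer binding sites of retrotransposons. MIR845a was counted in every library, with 1, 36, 4 and 15 counts in −Fe replicates 1 to 4, against 2, 73, 47 and 22 counts in +Fe replicates 1 to 4. The groups overlapped, and −Fe replicates 1 and 3 and +Fe replicate 1 held at most 4 counts each. MIR845b had no count. MIR854a to MIR854e, which lie in Athila retrotransposons on chromosome 5, had 2, 40, 1, 21 and 17 counts over the 8 libraries, and MIR855, which lies in a retrotransposon on chromosome 2, had 19. Reads of such near-identical copies cannot be assigned to one copy with certainty.

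For the other 36 precursors no role was listed. Of these 29 were counted, 26 were tested and 14 were counted in all libraries, and the median log2 fold change was 0.18. At an unadjusted edgeR p under 0.05 were 2 of the 26, MIR830 and MIR837, both higher in −Fe, against 4.86% of all loci. Neither had a count in +Fe libraries, and none of the 26 was called. MIR830 (chromosome 1, 4820355 to 4820549) was the only one of the 47 tested whose groups did not overlap. It was counted 25, 8, 3 and 6 times in −Fe replicates 1 to 4 and 0 in every +Fe library, or 2.36, 0.631, 0.253 and 0.456 CPM in −Fe. Replicate 3 was at the limit of 3 counts and replicate 1 was the highest. The mean of MIR830 was at least 3.65-fold higher in −Fe, with 3 counts per +Fe library as the limit. Replicate 1 held 59.5% of its counts, and without it the bound was 1.76-fold. Its edgeR log2 fold change of 6.62 ± 2.44 (SE) depends on the prior count and is no bound (unadjusted p = 0.0124, adjusted p = 0.645). The exact two-sided permutation test gave p = 0.0286, the smallest possible, and 0.943 after adjustment over all loci. A separation of this kind, with −Fe higher, was found for 2.13% of the 47 and 1.64% of all loci, and with +Fe higher for none of the 47 and 1.32% of all loci.

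MIR837 (chromosome 1, 6520940 to 6521123), which the RefSeq annotation places at the nitrate transporter gene NRT1.9, was counted 26, 2, 2 and 0 times in −Fe replicates 1 to 4 and none in +Fe libraries. One library held 86.7% of its counts. The mean was at least 2.75-fold higher in −Fe, with the same limit (edgeR, unadjusted p = 0.0250, adjusted p = 0.645), and without −Fe replicate 1 the −Fe mean of 0.109 CPM was under the limit and gave no bound.

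MIR865 (chromosome 5, 5169990 to 5170131) was the most abundant precursor without a listed role. It was at 16.6, 22.6, 11.0 and 17.0 CPM in −Fe replicates 1 to 4, against 6.87, 7.63, 14.2 and 27.4 CPM in +Fe replicates 1 to 4. The groups overlapped, and +Fe replicate 4 was the highest of all libraries. The log2 fold change of MIR865 was 0.50 ± 0.36 (SE, edgeR, unadjusted p = 0.173), and 1.01 without +Fe replicate 4 (unadjusted p = 0.00374). In that fit the smallest adjusted p among the young precursors was 0.770. With any other single library left out, the log2 fold change of MIR865 was 0.29 to 0.68 (edgeR, unadjusted p = 0.0834 to 0.402).

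MIR841b (chromosome 4, 2184135 to 2184629) was counted 83, 64, 18 and 37 times in −Fe replicates 1 to 4, against 25, 2, 12 and 35 times in +Fe replicates 1 to 4. Its relative MIR841a was counted 35, 30, 3 and 18 times in −Fe replicates 1 to 4, against 3, 0, 18 and 15 times in +Fe replicates 1 to 4. Both were high in the same −Fe libraries, 1 and 2, and overlapped between the groups. The fitted log2 fold change was 1.64 ± 0.90 for MIR841b (SE, edgeR, unadjusted p = 0.0798) and 1.52 ± 1.48 for MIR841a (unadjusted p = 0.316), and reads of the pair can be shared.

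MIR860 (chromosome 5, 9098791 to 9098916) lies, by the RefSeq annotation, at FC1, which encodes a ferrochelatase, the enzyme that inserts iron into protoporphyrin to form heme. It was counted 66, 18, 8 and 16 times in −Fe replicates 1 to 4, against 82, 43, 43 and 19 times in +Fe replicates 1 to 4. A single −Fe library, replicate 1, was above all +Fe libraries in CPM, and the other −Fe libraries were below every one of them. Its log2 fold change was −0.48 ± 0.85 (SE, edgeR, unadjusted p = 0.578).

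MIR833a and MIR833b overlap by 85 nt on chromosome 1 and had nearly the same counts, 855 and 793 over the 8 libraries. MIR833a was at 5.44 to 7.56 CPM in −Fe and 4.62 to 21.1 CPM in +Fe libraries. MIR848 was at 2.96 to 9.86 CPM in −Fe and 4.69 to 11.2 CPM in +Fe libraries. These ranges overlapped, as did those of MIR843, at 3.95 to 11.5 CPM in −Fe and 2.61 to 13.4 CPM in +Fe libraries.

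MIR839 was at 4.89 to 12.9 CPM in −Fe and 1.04 to 10.9 CPM in +Fe libraries, with a log2 fold change of 0.88 ± 0.58 (SE, edgeR, unadjusted p = 0.142). MIR850 was at 3.04 to 10.0 CPM in −Fe and 1.42 to 13.1 CPM in +Fe libraries. MIR829, MIR849, MIR866, MIR869 and MIR835 completed the set counted in all libraries, each with at most 381 counts in total, log2 fold changes between −1.22 and 0.33, and overlapping groups. MIR779 was missed in one library only, with 32, 44, 53 and 58 counts in −Fe replicates 1 to 4, against 33, 0, 133 and 72 counts in +Fe replicates 1 to 4.

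Many of the less abundant precursors were sporadic. Of the 47 with at least 10 counts, 12 (25.5%) had at least 50% of their counts in a single library, compared with 7 of 75 (9.33%) in the conserved families and 26 of 90 (28.9%) of those from MIR1886 upward. Such libraries occurred in both groups. MIR836 had 46 of its 48 counts in +Fe replicate 2, MIR862 had 27 of 29 in +Fe replicate 1, and MIR853 had all 15 in −Fe replicate 4.

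Precursors with at least 10 counts and none in +Fe numbered 6 of 47 (12.8%), against 5.98% of all loci. None of the 47 had such counts and none in −Fe, against 1.57% of all loci. The 6 were MIR830, MIR837, MIR826a, MIR851, MIR853 and MIR831, the last with 6 and 4 counts in −Fe replicates 1 and 3. Of these MIR830 alone was counted in all 4 −Fe libraries. MIR851 had 1 and 16 counts in −Fe replicates 2 and 3.

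**Figure D4:**
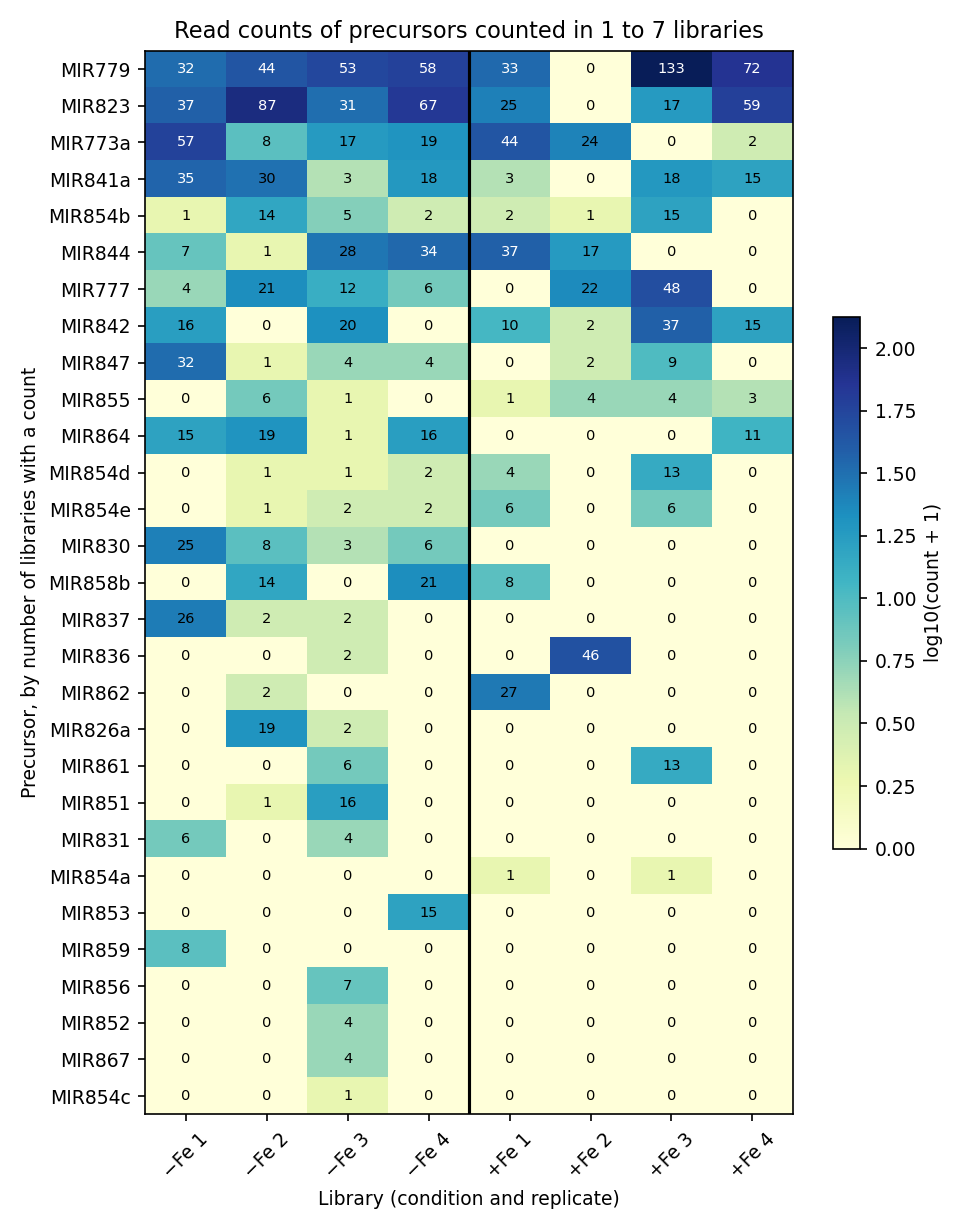
Read counts of the 29 young precursors counted in 1 to 7 libraries, with −Fe libraries left of the line and +Fe libraries right of it; colour is log10(count + 1) and each cell gives the count. MIR830 has 25, 8, 3 and 6 counts on the −Fe side and 0 throughout the +Fe side, whereas MIR836 and MIR862 have most of their counts in 1 +Fe library each.

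The table also lists small RNA loci defined from read clusters, and these overlap the precursors. For 46 of the 47 tested precursors such a locus had counts, and for MIR858b the overlapping locus had none. In 29 cases the precursor held at least 90% of the count of the largest overlapping locus, in 4 cases 50 to 90% and in 13 cases under 50%. MIR780, MIR830, MIR837 and MIR826a each held 100% of theirs.

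In other cases the cluster held counts beyond the hairpin. MIR850 and MIR863 lie 669 nt apart inside a locus of 4131 nt that had 9130 counts at the annotated noncoding RNA gene AT4G13495, and held 6.07% and 14.3% of it. That locus had a log2 fold change of 0.57 (edgeR, unadjusted p = 0.0254, adjusted p = 0.645). MIR849 held 10.0% of 3472 counts, MIR825 10.6% of 801, MIR829 29.5% of 1291, MIR841a 15.7% of 778, MIR841b 43.7% of 631 and MIR836 17.0% of 283. MIR855 held 3.35% of the 567 counts in a locus of 21716 nt. MIR776 and MIR832 had no count, although the loci overlapping them had 498 and 338.

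MIR824 differed, since its annotated hairpin was longer than the clusters. A locus of 69 nt at one end held 5584 counts and a locus of 168 nt at the other held 243. The annotated precursor held 5827 counts in all. MIR846 likewise contained clusters with 186 and 79 counts. No strand is given in the table, so reads of the hairpin and of an overlapping transcript cannot be separated.

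**Figure D5:**
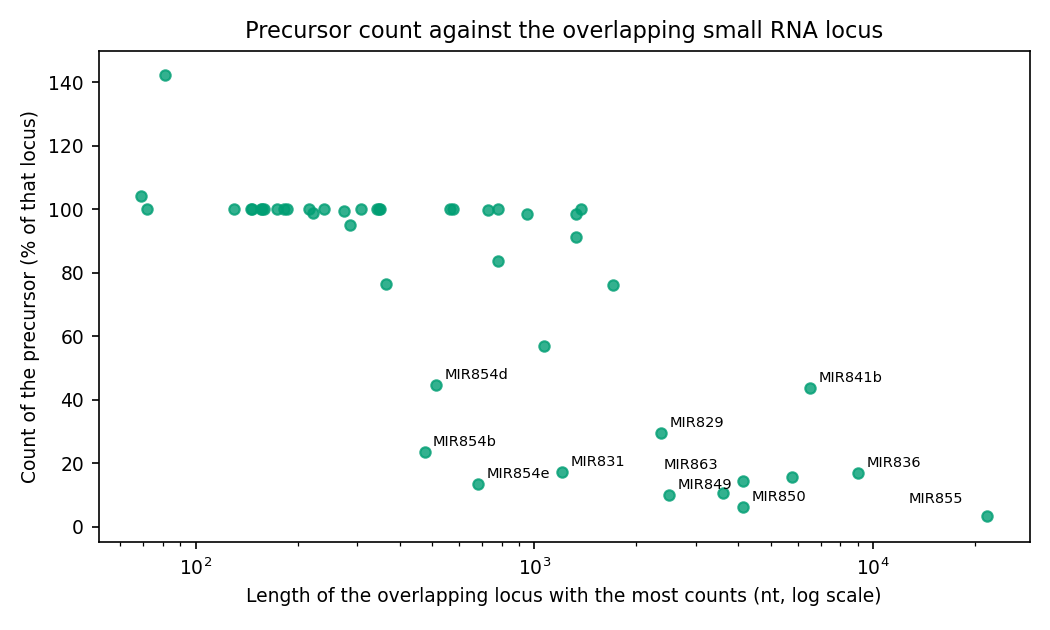
Count of each tested young precursor as percent of the count of the largest overlapping small RNA locus, against the length of that locus (nt, log scale); each point is one precursor, and precursors under 50% are named except MIR825 and MIR841a. In 29 of 46 cases the precursor holds at least 90% of the locus, and MIR855, MIR850 and MIR849 hold 3.35%, 6.07% and 10.0%.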

How the data were processed

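Raw small RNA counts per locus in 8 Arabidopsis phloem exudate libraries (4 −Fe, 4 +Fe) were deposited by the authors, without normalization. They removed adapters with Cutadapt without size limits and used ShortStack for alignment and counting. The build is TAIR10 per the submitters' processing notes, and versions and the handling of multimapping reads are not given in the sources used here. The column of sums equals the total over the libraries and was not used further. All library columns were used (0 left out).

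CPM (counts scaled to 1e+06 per library) were computed on library totals. edgeR (version 4.0.16, limma 3.58.1, R 4.3.3) fitted quasi-likelihood F-tests with condition alone, TMM factors and a minimum of 10 counts summed over all 8 libraries (17722 loci), with Benjamini-Hochberg adjustment. Calls needed an adjusted p under 0.1 and a change of 0.5 or more on the log2 scale. The standard error is the log2 fold change divided by the square root of F. DESeq2 (version 1.42.0), library totals, DESeq2 size factors in edgeR, other count minimums, a replicate block and leaving out libraries were alternatives. Single precursors were also compared by exact permutation over 70 splits. On simulated data the fit recovered changed loci at a low dispersion. It did not at the common dispersion of these libraries, which was given to every simulated locus and exceeds the typical spread of well-counted loci.

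Named were the precursors counted in all 8 libraries, those at an unadjusted p under 0.05, those whose groups did not overlap, and those with a listed role. MIR779, MIR831, MIR836, MIR841a, MIR851, MIR853, MIR862, MIR776 and MIR832 are described with values as examples chosen after their values were seen. Members, role lists and marker lists were chosen with earlier results of these data known. RefSeq gene models (TAIR10.1) were used for names and neighbouring genes only. Precursor sequences were not used here.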

Additional observations from a re-analysis of the deposited data

Results flagged for a closer look

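In 11 of the 58 groups of 4 libraries checked, over 32 quantities, a single library lay apart from the other 3 by Dixon's criterion. For normally distributed values chance meets it in about 1 in 20 groups, a rate that does not hold for low CPM with zeros. A precursor counted in 1 library of a group, such as MIR853, meets it by construction. MIR837, MIR826a, MIR851 and MIR853 were checked because of their low unadjusted p. No excess over chance can therefore be read from the 11. In −Fe replicate 1, MIR860 was at 6.23 CPM against 0.674 to 1.42 CPM in the other −Fe libraries, and MIR837 at 2.46 CPM against 0 to 0.169 CPM. In −Fe replicate 2, MIR824 was at 118 CPM against 45.9 to 54.8 CPM, MIR826a at 1.499 CPM against 0 to 0.169 CPM, and MIR833a and MIR833b, which overlap, both low at 5.44 CPM against 7.42 to 7.56 CPM and 7.29 to 7.56 CPM. MIR851 was at 1.35 CPM in −Fe replicate 3 against 0 to 0.0789 CPM, and MIR853 at 1.14 CPM in −Fe replicate 4 against 0. Among +Fe libraries, MIR824 was low in replicate 1, at 27.8 CPM against 60.3 to 66.2 CPM, MIR780 was high in replicate 2, at 5.12 CPM against 0.0708 to 0.0957 CPM, and MIR825 was high in replicate 4, at 4.31 CPM against 0.290 to 0.779 CPM.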

How the results depend on the processing

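No young precursor was called in edgeR or DESeq2 under any alternative fixed with the design, including an adjusted p under 0.05. DESeq2 gave no adjusted p for some precursors, MIR830, MIR837 and MIR826a among them, and could not call those. Without +Fe replicates 2 and 4, an alternative chosen after seeing the data, 1 of 46 (MIR780) was called. The share of all loci called in that fit is not given here. The number at an unadjusted p under 0.05, 3 in the reported fit, was 5 of 47 with DESeq2 (4.54% of all loci were higher in −Fe in that fit), 0 of 31 with filterByExpr (1.31%), 6 of 53 with a minimum of 1 count (4.71%) and 9 of 46 without +Fe replicates 2 and 4 (3.48%). It was 2 to 9 with single libraries left out (2.97 to 5.58%), the 9 of 47 without +Fe replicate 4 (3.49%), and all were higher in −Fe. The median log2 fold change was −0.012 with library totals, 0.44 without +Fe replicates 2 and 4, and −0.054 to 0.24 with single libraries left out. Groups that did not overlap numbered 7 without +Fe replicates 2 and 4, 5 of them higher in −Fe and 2 higher in +Fe, against 4.31% and 6.56% of all loci, and 1 to 3 with single libraries left out, the 3 of 47 (6.38%, all higher in −Fe) without +Fe replicate 4, against 2.40% of all loci higher in −Fe and 2.72% higher in +Fe. With at least 10 counts required in each library, 15 precursors remained detected in all 8, and the number was 24 to 27 with single libraries left out, while 49 to 53 had a count in some library. The difference in summed level was −31.0 to 41.9 CPM with single libraries left out, and 2637 per 1e+06 precursor counts. The share of precursor counts was 4.08% without the 3 most abundant precursors in the total and 1.69 to 1.79% with single libraries left out.

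Single directions turned as follows. With library totals MIR822 was at −0.24 and MIR858a at −0.012, and without +Fe replicates 2 and 4 MIR781a was at 0.35. With single libraries left out, the log2 fold change was −0.16 to 0.13 for MIR822, −0.068 to 0.55 for MIR858a, −0.12 to 0.61 for MIR863 and −0.35 to 0.23 for MIR781a. The causes were not tested.

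The labels number the replicates in each group but do not say whether same-numbered −Fe and +Fe libraries were handled together. The correlations of same-numbered deviations were 0.02, 0.02, 0.05 and −0.002. Loci with few counts weaken such correlations, so they cannot decide whether the libraries were paired. With the replicate block, 0 were called, 3 were at an unadjusted p under 0.05 (MIR839, MIR780 and MIR824, all higher in −Fe, against 2.67% of all loci), and the median log2 fold change was 0.45, against 0.29 for all loci in that fit. At this depth, a difference between 0 and about 3 counts in a library was not detectable.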
